A study of Mus musculus with 6 samples.

Results

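The forkhead (Fox) transcription factors were examined in RNA-Seq counts from mouse lip tissue. The deposited count table held 26814 gene symbols, of which 38 had a symbol made of Fox, 1 letter and a number. Of these, 37 were protein-coding forkhead genes and 1, Foxl2os, was a noncoding RNA gene beside Foxl2, which was described apart. A level of 1 CPM (counts scaled to library size) in no fewer than 3 of the 6 libraries was reached by 28 of the 37 genes, and these were tested together with all others that reached it, 15009 genes in all. The other 9, Foxa1, Foxa3, Foxb2, Foxe3, Foxf1, Foxf2, Foxh1, Foxj1 and Foxr1, did not reach 1 CPM in any library. The libraries came from the top lip of adult female C57BL/6J mice, 3 wild type (WT1 to WT3) and 3 carrying the targeted allele Gtf2ird1tm1Hrd (KO1 to KO3), with 1 library per mouse. Gtf2ird1 encodes a transcription factor of the TFII-I family that is deleted in Williams-Beuren syndrome, and the study asked which genes change in the epidermal tissue of mice without it. The allele is inherited and so carried by every cell type of the lip, which as a whole tissue holds epidermis, hair and vibrissa follicles, dermis, glands, vessels and skeletal muscle.

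Forkhead proteins bind DNA through a winged-helix domain of which 1 helix, the recognition helix, lies in the major groove and reads the core site TGTTTAC or its relatives. Some members drive the fate of a cell type, as Foxn1 and Foxq1 do in the hair shaft and Foxp3 in the regulatory T cell. Others answer to signals, as the FoxO proteins do, which leave the nucleus when the kinase AKT phosphorylates them downstream of insulin and growth factors, or follow the cell cycle, as Foxm1 does.

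The family is recognised by its shared helix. The 36 coding bases (12 codons) of the helix were found by a pattern search in the longest transcript of 33 of the 37 genes (GENCODE vM21, build GRCm38), and 7 that the results turn on are shown here, 5′ to 3′ on the coding strand. Capitals mark each base that differs from Foxq1.
Foxq1: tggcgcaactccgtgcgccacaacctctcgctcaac
Foxn1: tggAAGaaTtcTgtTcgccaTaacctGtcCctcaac
Foxe1: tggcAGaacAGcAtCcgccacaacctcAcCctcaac
Foxc1: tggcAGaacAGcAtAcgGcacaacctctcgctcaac
Foxc2: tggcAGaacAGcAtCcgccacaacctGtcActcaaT
Foxl2: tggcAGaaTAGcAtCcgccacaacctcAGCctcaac
Foxp3: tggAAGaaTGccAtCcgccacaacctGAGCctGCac
Of the 36 bases, Foxc1 shared 29 with Foxq1, Foxe1 28, Foxn1 and Foxc2 27 each, Foxl2 26 and Foxp3 23. In spite of the shared domain, whole transcripts of the members are far apart. Among 666 pairs of members, the longest exact run of bases in common was 53, between Foxc1 and Foxc2, followed by 47 between Foxd1 and Foxd2 and between Foxd2 and Foxd3. These runs are shorter than a read of the study, and the counts are of reads assigned to 1 gene.

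Total counts on genes lay between 20164081 in KO1 and 29491767 in KO2, and 3 counts, the upper bound for a count of 0, came to between 0.0985 CPM in KO2 and 0.153 CPM in KO1 (counting error only). Counts of the targeted gene were not lower under the KO label. Gtf2ird1 had 78.0, 70.0 and 70.5 CPM in WT1 to WT3 and 166, 162 and 144 CPM in KO1 to KO3. It was the KO-labelled libraries that were higher, with a log2 fold change of 1.11 ± 0.13 (standard error) and an adjusted p of 0.0018 by edgeR's quasi-likelihood test. Counts per gene sum the reads of every transcript from the locus, altered ones included, and so neither bear out nor contradict the genotype label. All directions below are those of the libraries by their label. The markers of the lip were present, with the summed level of 7 basal keratinocyte genes between 10185 and 12035 CPM and that of 18 hair shaft and inner root sheath genes between 6543 and 14129.5 CPM over the 6 libraries. KO3 stood nearer to WT than the others labelled KO, with correlations of log2 CPM across genes of 0.948 to 0.955 with the WT libraries against 0.907 to 0.933 for KO1 and KO2.

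In these libraries 2 forkhead genes changed at an adjusted p under 0.05, 1 in each direction. Foxq1, the gene mutated in satin mice and needed for the medulla of the hair shaft, was lower in the libraries labelled KO, and Foxp3, the gene that defines regulatory T cells, was higher. In whole tissue, fewer cells of a type and less RNA per cell cannot be told apart. Over all 15009 genes tested, 2.09% were called lower and 4.38% higher. Log2 fold changes were below 0 in 22 of the 28 tested forkhead genes, against 52.0% of all tested genes, and their median was -0.44, against -0.02 over all tested genes. With a trend on GC content removed from the fit, 18 of the 28 were below 0 and the median was -0.23, against 0.01 over all tested genes. The 3 KO values were under the 3 WT values in 14 of the 28, against 18.0% of all tested genes, and above them in 1 of the 28, against 13.5%. Foxp3 passed the filter only through libraries labelled KO, and Foxl1 and Foxl2 only through WT libraries, so that these 3 had to differ to be tested. Among the other 25, 20 log2 fold changes were below 0, 12 had all KO values below WT, and the median was -0.43. With the GC trend removed, 16 of the 25 were below 0 and their median was -0.19. These are counts over members chosen with earlier results known, and no test was made of the family as a whole.

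The lower side rests unevenly on the libraries. KO1 held the lowest of the 6 values in 17 of the 28 genes, against 24.8% of all tested genes, and without KO1 the median was -0.34. Without KO3 it was -0.53 and 11 forkhead genes were called lower, against 16.2% of all tested genes. edgeR's exact test, the one the study's methods name, called 8 lower, against 7.15% of all genes, and 1 higher, against 7.76%. DESeq2's Wald test called 7 lower, against 7.61%, and the quasi-likelihood test at an adjusted p under 0.1 called 9 lower, against 8.53%. With upper-quartile scaling 2 were called lower, against 2.69%, and with a replicate block and the GC trend removed 2, against 3.36%. The replicate block alone left 0 called higher, against 3.86%. Without adjustment, p was under 0.05 for 13 lower genes, against 16.0% of all tested genes, and for 1 higher gene, against 13.5%. Foxl1 and Foxl2, tested only through WT, are among the 13 and among the 8 of the exact test, and over the 25 genes at 1 CPM in both genotypes these counts were 11 and 6.

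**Figure D1:**
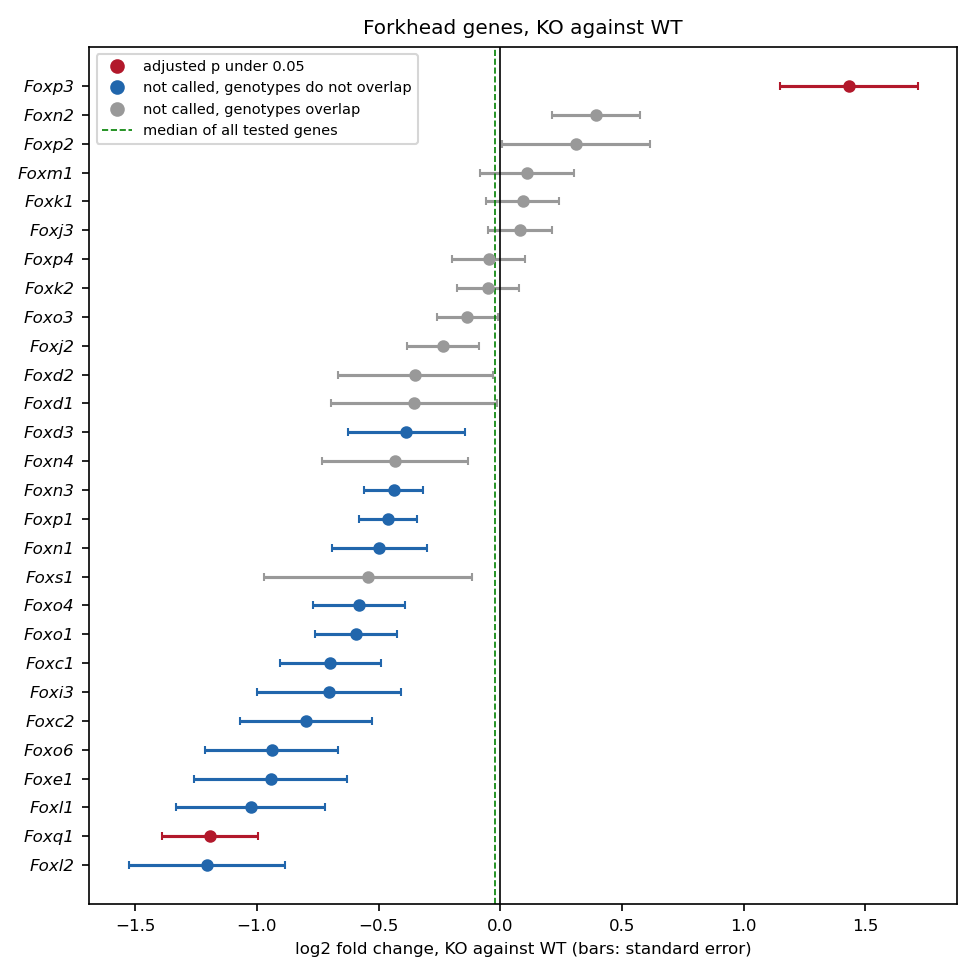
Log2 fold change of the 28 tested forkhead genes, libraries labelled KO against WT, with bars of 1 standard error from the edgeR fit (n = 3 libraries per genotype). Foxp3 at 1.43 and Foxq1 at -1.19 were called, the points for genes whose genotypes do not overlap all lie below 0 apart from Foxp3, and the dashed line marks the median of all tested genes at -0.02.

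Levels between genes are compared here per kilobase of exon (RPKM, CPM divided by the length of all annotated exons in kb). In WT the 3 highest were Foxo4 at 21.8 ± 3.67 RPKM (SD, n = 3), Foxo3 at 19.96 ± 1.32 and Foxn1 at 19.6 ± 3.53, which did not differ beyond their spread. Foxk1 (14.9 ± 2.07), Foxj2 (13.8 ± 1.92) and Foxk2 (13.4 ± 0.285) followed and did not differ beyond their spread either, and then came Foxc1 (10.7 ± 1.89), Foxp4 (10.2 ± 1.58) and Foxo1 (8.29 ± 0.75). Foxp1, Foxm1, Foxo6, Foxj3, Foxe1, Foxn2, Foxi3, Foxn3, Foxc2 and Foxq1 lay between 6.51 and 2.74 RPKM in that order, and of these only Foxp1 and Foxq1 exceeded the next gene by more than the larger of their SDs. Foxs1 stood at 1.43 and the remaining 8 tested genes under 1, from Foxd3 at 0.722 down to Foxp3 at 0.152 and Foxp2 at 0.131. In the libraries labelled KO the order differed, with Foxo3 highest at 18.2 RPKM, Foxk1 at 15.9 next and Foxo4 at 14.6, and with Foxl2 (0.157) and Foxp2 (0.164) lowest.

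**Figure D2:**
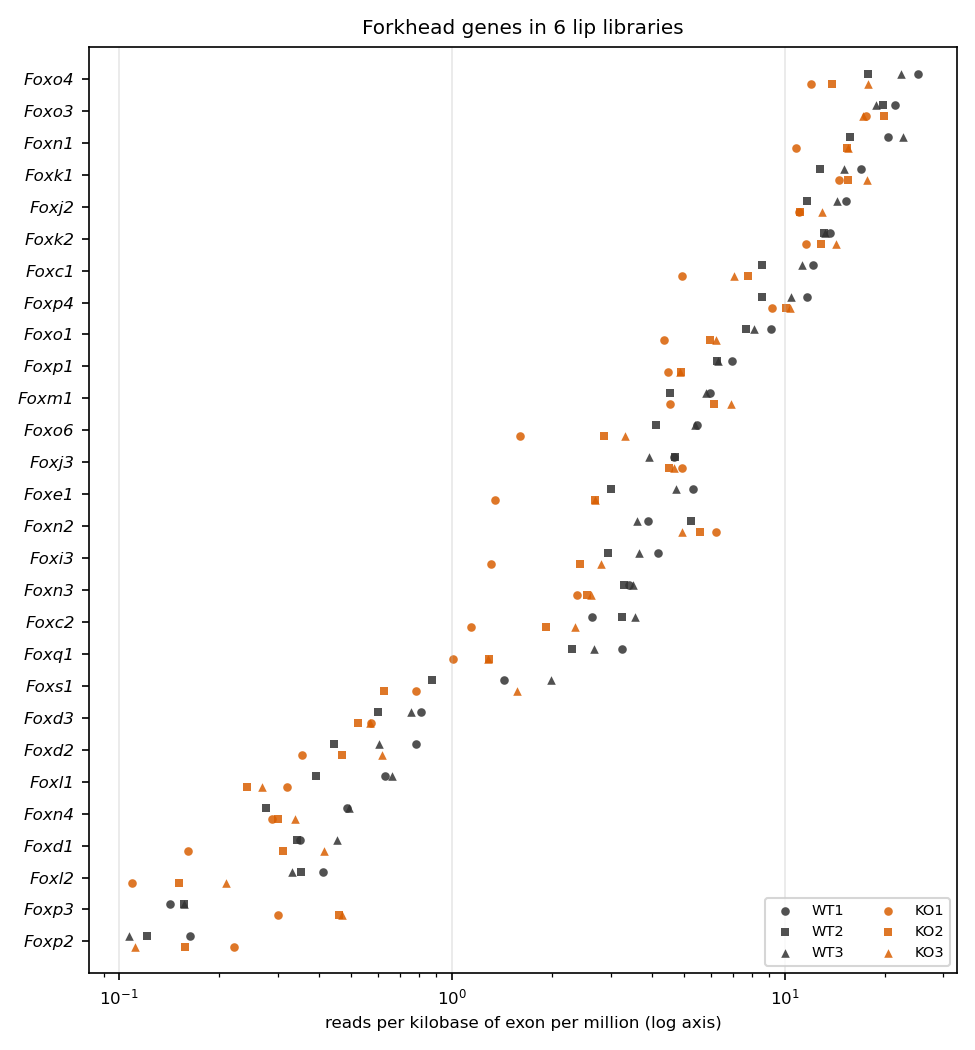
RPKM (log axis) of the 28 tested forkhead genes in each of the 6 libraries, ordered by the WT mean, with WT in grey and KO in orange and the replicate number by shape. KO1 (orange circle) is the lowest point of many genes from Foxc1 down, as it was in 17 of the 28, and Foxp3 is the gene whose 3 KO points all lie to the right of WT.

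Hair and epidermal members had the 3 KO values under the 3 WT values in each of the 4 genes tested, against 18.0% of all tested genes. Their median log2 fold change was -0.82, or -0.47 with the GC trend removed. KO1 held the lowest of the 6 values in each of the 4, against 24.8% of all tested genes. Foxq1 (chromosome 13, 31556134 to 31560976, plus strand, 1 exon) had 15.7, 11.1 and 13.0 CPM in WT1 to WT3 and 4.90, 6.27 and 6.21 CPM in KO1 to KO3. The genotypes did not overlap, and the KO mean of 5.79 ± 0.773 CPM (SD, n = 3) was under that in WT of 13.3 ± 2.30 CPM (SD, n = 3) by more than the spread. The log2 fold change was -1.19 with a standard error of 0.20 (adjusted p = 0.0122). The call held under each of the other tests, scalings and filters tried and in 3 of the 6 fits with 1 library fewer, and over those 6 the log2 fold change lay between -1.30 and -1.04. It was lost, with adjusted p-values up to 0.067, without WT1, without WT3 and without KO2. The gene overlaps A530084C06Rik (31556134 to 31559333) on the opposite strand, which had 10 to 30 counts per library against 96 to 433 for Foxq1. A530084C06Rik was below the filter, with means of 1.02 CPM in WT and 0.449 CPM in KO and all KO values below WT. The strand setting of the counting is not stated, and the part of this overlap in the Foxq1 counts was not tested.

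Foxn1, whose loss gives the nude mouse with its unkeratinised hair shafts and absent thymus, was at 65.6, 50.5 and 72.7 CPM in WT1 to WT3 and 34.7, 49.4 and 49.8 CPM in KO1 to KO3. KO2 and KO3 lay just under the lowest WT library, and the difference did not pass (log2 fold change -0.50, standard error 0.20, adjusted p = 0.141). Foxe1, known for the thyroid and palate and also made in the hair follicle, had 14.8, 8.44 and 13.2 CPM in WT1 to WT3 and 3.78, 7.58 and 7.58 CPM in KO1 to KO3. KO1 was the lowest, KO2 and KO3 lay close under WT2, and the log2 fold change of -0.94 (standard error 0.31) did not pass, with an adjusted p of 0.101 (0.0246 by the exact test and 0.0418 by DESeq2). Foxe1 overlaps Gm12446 on the other strand. Foxi3, a factor of ectodermal placodes whose mutation makes dogs hairless, had 5.32, 3.78 and 4.67 CPM in WT1 to WT3 and 1.68, 3.12 and 3.61 CPM in KO1 to KO3 (log2 fold change -0.70, standard error 0.30, adjusted p = 0.158).

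The hair markers had log2 fold changes of the same sign. Of 18 hair shaft and inner root sheath genes tested (no forkhead gene among them), all 18 log2 fold changes were below 0, and the median was -0.73. Of all tested genes, 52.0% were below 0. KO1 held the lowest of the 6 values in all 18, against 24.8% of all tested genes. Of the 18, 3 fell and 0 rose (7 and 0 by the exact test and by DESeq2). The shares of all tested genes called lower were 2.09%, 7.15% by the exact test and 7.61% by DESeq2. The 3 that fell were Padi3, an enzyme that modifies hair shaft proteins with 180.1, 151 and 201 CPM in WT1 to WT3 and 90.6, 101 and 114 CPM in KO1 to KO3 (log2 fold change -0.80, adjusted p = 0.0246), Hoxc13, a regulator of hair keratins (-0.90, adjusted p = 0.0292), and Lef1, the WNT effector of the hair matrix (-0.98, adjusted p = 0.0387). The summed level of all 18 was 11086 to 14129.5 CPM in WT and 6543 to 9214 CPM in the libraries labelled KO. Set against 1000 CPM of these 18 markers, Foxq1 was at 1.41, 0.976 and 0.918 CPM in WT1 to WT3 and at 0.749, 0.692 and 0.674 in KO1 to KO3, without overlap. The same quotient for Foxn1 overlapped, with means of 5.17 ± 0.741 (SD, n = 3) in WT and 5.39 ± 0.0820 in KO, as did those for Foxi3 (0.381 against 0.331) and Foxe1 (1.01 against 0.746). Per 1000 CPM of the 7 basal keratinocyte markers, whose own median log2 fold change was -0.04 with 0 called by the quasi-likelihood or exact test, 1 called higher by DESeq2 and 1 in each direction at an unadjusted p under 0.05, Foxq1 was at 1.17 ± 0.151 (SD, n = 3) in WT and 0.522 ± 0.0905 in KO, again without overlap. Over the same 7 markers Foxe1 did not overlap either (1.08 ± 0.257 in WT and 0.570 ± 0.211 in KO), while Foxn1 did (5.59 ± 0.903 and 4.02 ± 0.894). The part of hair content in the Foxq1 value was not tested beyond these quotients.

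**Figure D3:**
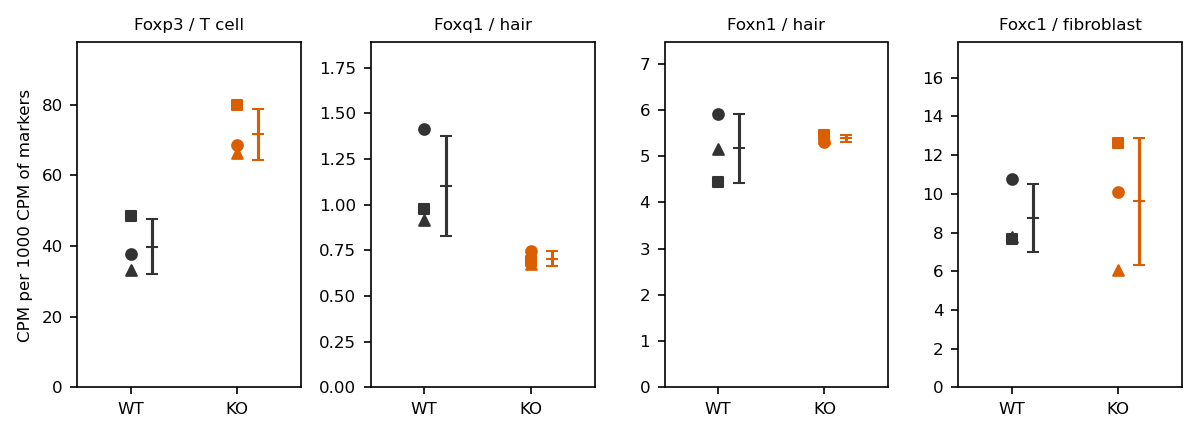
CPM of a forkhead gene per 1000 CPM of a marker list summed in the same library, for Foxp3 over 10 T cell genes, Foxq1 and Foxn1 over 18 hair genes and Foxc1 over 8 fibroblast genes. Points are libraries (circle, square and triangle for replicates 1, 2 and 3), and the bars beside them give the mean and SD of 3. The KO points lie above WT for Foxp3 and below it for Foxq1, and the genotypes overlap for Foxn1 and Foxc1. Foxp3 had to be higher under the KO label to be tested.

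Members of mesenchyme and vessels had log2 fold changes below 0 in each of the 7 tested, with a median of -0.70. None was called (0 of 7), with 4 at an unadjusted p under 0.05, against 16.0% of all tested genes. The exact test called 4 lower, against 7.15%, and DESeq2 1, against 7.61%. Foxl1 and Foxl2, which had to be lower to be tested, are in these counts, and over the other 5 the median was -0.54 with 2 at an unadjusted p under 0.05. Foxc1, a factor of neural crest mesenchyme that also keeps hair follicle stem cells quiescent, was the highest of them at 71.2, 49.97 and 65.8 CPM in WT1 to WT3 and 28.6, 45.3 and 41.3 CPM in KO1 to KO3. All KO values lay below WT (log2 fold change -0.70 ± 0.21, adjusted p = 0.081), and by the exact test its adjusted p was 0.0241. Foxc2, needed for lymphatic valves, had 7.17, 8.82 and 9.69 CPM in WT1 to WT3 and 3.11, 5.22 and 6.39 CPM in KO1 to KO3, with KO3 closest to WT (-0.80, standard error 0.27, adjusted p = 0.104). Foxl1, a marker of mesenchymal cells beneath the gut epithelium, had 1.70, 1.06 and 1.80 CPM in WT1 to WT3 and 0.868, 0.656 and 0.730 CPM in KO1 to KO3, which are 16 to 47 counts. Foxl2, the ovary and eyelid factor, had 1.34, 1.15 and 1.08 CPM in WT1 to WT3 and 0.357, 0.492 and 0.685 CPM in KO1 to KO3, 7 to 37 counts. Neither of them reached 1 CPM in any library labelled KO, and both had log2 fold changes under -1 (Foxl1 -1.03, adjusted p = 0.0811, Foxl2 -1.21, adjusted p = 0.0643). The noncoding Foxl2os, which starts on the opposite strand beside Foxl2 and overlaps its first bases, had 2.54, 2.55 and 1.35 CPM in WT1 to WT3 and 1.17, 0.952 and 1.46 CPM in KO1 to KO3, so that KO3 overlapped WT3 (log2 fold change -0.86, adjusted p = 0.129).

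The other 3 of this group overlapped between genotypes. Foxd1, a kidney stroma factor, was at 1.77, 1.74 and 2.29 CPM in WT1 to WT3 and 0.817, 1.58 and 2.1 CPM in KO1 to KO3. Foxd2 was at 2.03, 1.15 and 1.57 CPM in WT1 to WT3 and 0.919, 1.21 and 1.6 CPM in KO1 to KO3. Foxs1, found in pericytes and in sensory neurons, was at 1.88, 1.15 and 2.60 CPM in WT1 to WT3 and 1.02, 0.820 and 2.05 CPM in KO1 to KO3 and spread widely within each genotype. Their adjusted p-values were 0.507, 0.483 and 0.415.

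Fibroblast markers had log2 fold changes of the same sign, without a call. All 8 had log2 fold changes below 0 (median -0.57, 0 called, 2 at an unadjusted p under 0.05, 0 by the exact test or DESeq2), and their summed level was 6603, 6524 and 8459 CPM in WT and 2833, 3591 and 6788 CPM in KO1 to KO3, the KO3 sum within the WT range. Per 1000 CPM of fibroblast markers, Foxc1 was at 10.8, 7.66 and 7.78 CPM in WT and 10.1, 12.6 and 6.09 in KO. The quotients of Foxc2, Foxl1 and Foxl2 overlapped between genotypes as well. Pericyte and smooth muscle genes had a median of -0.53 and endothelial genes one of -0.30, with 0 of 7 called in each list (3 and 2 at an unadjusted p under 0.05, 1 and 0 by the exact test, 0 by DESeq2). The part of these shifts in the forkhead values was not tested.

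Several of these genes are neighbours. On chromosome 8, Foxf1, Foxc2 and Foxl1 follow each other with gaps of 28.0 and 9.04 kb, and on chromosome 13, Foxq1, Foxf2 and Foxc1 with gaps of 64.8 and 175 kb (GRCm38). Members below the filter stood beside tested ones in both. Foxf1, a factor of gut and lung mesenchyme, had 7 to 18 counts and 0.320 to 0.808 CPM, while Foxf2, known from palate and brain pericytes, had 2 to 12 counts and 0.102 to 0.467 CPM with each KO value below each WT value. Both lie under the filter and were not tested.

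The 4 FoxO genes had log2 fold changes below 0, against 52.0% of all tested genes, with 0 called. Of them 3 were at an unadjusted p under 0.05, against 16.0% of all tested genes. The exact test called 2 lower, against 7.15%, and DESeq2 2, against 7.61%. In WT, Foxo4 and Foxo3 had the 2 highest mean levels per kilobase, not beyond the spread of Foxn1. Foxo3, linked to stress resistance and long life, had 162, 149 and 142 CPM in WT1 to WT3 and 133, 150.2 and 130.1 CPM in KO1 to KO3, with overlap and no call (log2 fold change -0.14, adjusted p = 0.494). Foxo1, the insulin-answering factor of metabolism, had 79.1, 66.5 and 70.0 CPM in WT1 to WT3 and 37.6, 51.6 and 53.7 CPM in KO1 to KO3. Foxo4 had 87.4, 62.1 and 78.0 CPM in WT1 to WT3 and 41.9, 48.4 and 62.0 CPM in KO1 to KO3. In both the KO values lay below WT, narrowly for Foxo4, where KO3 and WT2 were 62.0 and 62.1 CPM, and neither passed (Foxo1 -0.59, standard error 0.17, adjusted p = 0.0732, Foxo4 -0.58, standard error 0.19, adjusted p = 0.0967). Foxo6, better known from the brain, had 14.3, 10.8 and 14.0 CPM in WT1 to WT3 and 4.19, 7.48 and 8.67 CPM in KO1 to KO3, and KO1 was its lowest library (-0.94, standard error 0.27, adjusted p = 0.078). The exact test called Foxo1 (adjusted p = 0.0374) and Foxo6 (adjusted p = 0.0135).

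Skeletal muscle, in which FoxO proteins drive atrophy genes, runs through the lip. All 8 muscle markers had KO values below WT, against 18.0% of all tested genes. KO1 held the lowest of the 6 values in all 8, against 24.8% of all tested genes. Each of the 8 was lower at an unadjusted p under 0.05, against 16.0%, and the median of the 8 was -1.003. Of them 1 was called lower (Tnnt3, fast troponin T, log2 fold change -1.01, adjusted p = 0.0397), and 6 by the exact test and by DESeq2. Per 1000 CPM of muscle markers, Foxo4 was at 7.06, 6.64 and 7.05 CPM in WT and 10.4, 9.22 and 7.85 in KO, now above WT, and Foxo1 overlapped. The muscle markers fell by more (median -1.003) than Foxo4 did (-0.58), so the direction of the Foxo4 difference was set by the choice of denominator. Which cells of the lip the Foxo4 reads came from was not tested. Among 18 known FoxO targets, 1 fell and 0 rose (2 and 0 by the exact test, 4 and 1 by DESeq2, none by limma-voom), with a median of -0.31 and 13 below 0. The one was Pdk4, the kinase that shuts off pyruvate dehydrogenase in fasted muscle, at 167, 39.8 and 133 CPM in WT1 to WT3 and 26.1, 18.5 and 36.4 CPM in KO1 to KO3 (log2 fold change -2.07, standard error 0.49, adjusted p = 0.0463). Fbxo32 and Trim63, ubiquitin ligases of muscle atrophy, had log2 fold changes of -0.40 (adjusted p = 0.0789) and -0.98 (adjusted p = 0.094), while Bnip3, a mitophagy receptor, had 0.49 (adjusted p = 0.102). Of 10 kinases and phosphatases upstream of FoxO, 0 were called (median -0.09), and the lowest p-values were those of Irs1, the insulin receptor's adaptor (-0.78, adjusted p = 0.0878), and Sgk1 (-0.34, adjusted p = 0.143). With an unadjusted p under 0.05 there were 2 of these 10, and the exact test and DESeq2 called 1 each.

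The 4 FoxP genes had log2 fold changes on both sides of 0. Foxp3 (chromosome X, 7573644 to 7595245, plus strand) had 0.652, 0.721 and 0.718 CPM in WT1 to WT3 and 1.38, 2.1 and 2.15 CPM in KO1 to KO3, from 18, 17 and 16 counts in WT and 27, 64 and 47 in KO. All KO values lay above WT, with a mean of 1.87 ± 0.430 CPM (SD, n = 3) against 0.697 ± 0.0391 CPM (SD, n = 3) in WT. The log2 fold change was 1.43 with a standard error of 0.28 (adjusted p = 0.0259). Foxp3 passed the filter only through the libraries labelled KO, so it had to be higher there to be tested. The call held in 12 of the 13 other settings and in 2 of the 6 fits without 1 library (log2 fold changes 1.34 to 1.65). It was lost without any 1 of the WT libraries and without KO2, where the adjusted p reached 0.123, and with a block for replicate number (adjusted p = 0.0505). The gene overlaps Ppp1r3f on the opposite strand, which had 2.79, 2.16 and 2.87 CPM in WT1 to WT3 and 1.74, 2.30 and 1.73 CPM in KO1 to KO3 and a log2 fold change of -0.43.

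Regulatory T cell genes were low, with log2 fold changes above 0 in 6 of the 7 tested. Of 10 in the table besides Foxp3, 7 were tested, 1 rose and 0 fell, with a median of 0.46 and a lowest log2 fold change of -0.45. Icos, a co-stimulatory receptor of activated T cells, had 0.471, 1.19 and 0.628 CPM in WT1 to WT3 and 2.55, 3.31 and 2.69 CPM in KO1 to KO3 (log2 fold change 1.91, standard error 0.35, adjusted p = 0.0186). Ctla4, the inhibitory receptor that regulatory T cells carry, had a log2 fold change of 1.34 and Il2ra, the high-affinity chain of the interleukin-2 receptor, 0.63, with KO values above WT in both and adjusted p-values of 0.0758 and 0.15. Ctla4 and Il2ra were named after their values were seen. Ctla4 passed the filter only through libraries labelled KO, and without it the median of the other 6 was 0.39. General T cell markers had log2 fold changes above 0 in each of 7 tested, 0 called (3 at an unadjusted p under 0.05, 1 by the exact test and 1 by DESeq2) and a median of 0.46. Their lowest p-values were those of Cd4 (1.01, adjusted p = 0.0784) and Cd5 (0.46, adjusted p = 0.151), and their summed level overlapped between genotypes at 14.9 to 21.5 CPM in WT and 20.1 to 32.3 CPM in KO. Per 1000 CPM of 10 T cell markers, Foxp3 was at 37.7, 48.4 and 33.3 CPM in WT and at 68.7, 79.9 and 66.4 in KO, without overlap. This quotient carries over a difference that Foxp3 needed in order to pass the filter. Of the 10, Cd3d, Cd8a and Cd28 were below the filter, as were Il10, Ccr8 and Gpr83 of the regulatory T cell genes. The part of the T cell markers in the Foxp3 value was not tested.

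A promoter window of Foxp3 is shown because it held the short core GGATTA, which GTF2IRD1 is known to bind. Another Foxp3 window, upstream of a different start site (chrX:7580233-7580482), held no match. The window shown comes from RefSeq (250 bases upstream of a start site inside the span of the gene, chrX:7579426-7579675, plus strand, build GRCm38.p6), with the motif in capitals.
Foxp3: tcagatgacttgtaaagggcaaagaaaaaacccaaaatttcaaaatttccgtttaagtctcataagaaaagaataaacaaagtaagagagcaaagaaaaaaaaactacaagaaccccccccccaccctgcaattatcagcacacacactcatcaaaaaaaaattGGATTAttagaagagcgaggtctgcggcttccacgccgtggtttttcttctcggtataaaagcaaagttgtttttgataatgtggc
GGATTA or its reverse complement TAATCC was found in the windows of 2 of 23 forkhead genes with an entry, Foxn3 and Foxp3, or 8.70%, and in 7.21% of 27025 genes. The forkhead core TGTTTAC (reverse complement GTAAACA) was in 1 of the 23, Foxa1, or 4.35%, and in 3.54% of all genes. Both shares are near the background, and a match is a match of letters only. Foxq1 was not among the genes with an entry.

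Foxp1, a factor of B cells, lung and hair follicle stem cells, had 95.7, 86.2 and 86.6 CPM in WT1 to WT3 and 61.3, 67.1 and 66.7 CPM in KO1 to KO3. The KO values lay below WT with a small spread (log2 fold change -0.46 ± 0.12, adjusted p = 0.0615, or 0.0123 by DESeq2). Foxp2, the gene of inherited speech disorder, had 2.68, 1.99 and 1.75 CPM in WT1 to WT3 and 3.62, 2.59 and 1.83 CPM in KO1 to KO3, with overlap (0.31, adjusted p = 0.513), and the lowest WT mean per kilobase of the 28. Foxp4 had 57.5, 42.0 and 51.4 CPM in WT1 to WT3 and 45.0, 49.8 and 51.1 CPM in KO1 to KO3 with all 3 KO values inside the WT range (-0.05, adjusted p = 0.852).

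The widely expressed FoxJ, FoxK and FoxN genes were 6 in number, of which 3 had log2 fold changes below 0 and 3 above. The quasi-likelihood and exact tests called 0. DESeq2 called 1 lower, against 7.61% of all tested genes, and 1 was lower at an unadjusted p under 0.05, against 16.0% (Foxn3 in both cases). Foxk1, which with Foxk2 represses autophagy genes in the nucleus, had 128, 97.1 and 114 CPM in WT1 to WT3 and 111, 117 and 134 CPM in KO1 to KO3. Foxk2 had 72.0, 69.3 and 69.7 CPM in WT1 to WT3 and 61.1, 67.7 and 74.9 CPM in KO1 to KO3. The genotypes overlapped in both, and the log2 fold changes were 0.09 and -0.05 with standard errors of 0.15 and 0.13. Foxj2 had 82.0, 62.3 and 77.1 CPM in WT1 to WT3 and 59.2, 59.6 and 69.1 CPM in KO1 to KO3 and Foxj3, known from the testis and muscle, 51.2, 51.6 and 43.0 CPM in WT1 to WT3 and 53.9, 49.2 and 51.0 CPM in KO1 to KO3, without a call in either (-0.24, adjusted p = 0.312, and 0.08, adjusted p = 0.707).

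Foxn2 and Foxn3, close relatives, lay on opposite sides of 0. Foxn3, a repressor that takes part in the DNA damage checkpoint, had 39.3, 38.0 and 40.4 CPM in WT1 to WT3 and 27.4, 29.3 and 30.1 CPM in KO1 to KO3. The 3 values of each genotype lay close together and did not overlap (log2 fold change -0.44 ± 0.12, adjusted p = 0.0727, or 0.0210 by DESeq2). Foxn2 had 28.5, 38.6 and 26.4 CPM in WT1 to WT3 and 45.8, 40.9 and 36.2 CPM in KO1 to KO3, with WT2 inside the KO range, a log2 fold change of 0.39, a standard error of 0.18 and an adjusted p of 0.186.

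Foxm1, which turns on the genes of G2 and mitosis, had 34.2, 26.1 and 33.4 CPM in WT1 to WT3 and 26.04, 35.4 and 39.8 CPM in KO1 to KO3. The genotypes overlapped (adjusted p = 0.722, log2 fold change 0.11 ± 0.19), and the sign turned without WT2 or without KO3. Of 18 FoxM1 mitotic targets, 3 rose and 0 fell (8 and 0 by the exact test, 9 and 0 by DESeq2), 17 log2 fold changes were above 0, and the median was 0.58. Ccnb1, the cyclin of mitotic entry, had 18.1, 19.7 and 25.1 CPM in WT1 to WT3 and 43.1, 52.6 and 44.8 CPM in KO1 to KO3 (1.16, standard error 0.17, adjusted p = 0.00634). Top2a, the topoisomerase that untangles replicated DNA, and Kif20a, a kinesin of cytokinesis, had log2 fold changes of 1.21 (adjusted p = 0.0313) and 0.999 (adjusted p = 0.0333). The summed level of the 18 was 361 to 581 CPM in WT and 705 to 836 CPM in the libraries labelled KO, without overlap. Suprabasal keratinocyte genes had a median of 0.64 over 7, with 1 called higher (Ivl, involucrin of the cornified envelope, 1.55, adjusted p = 0.0292), 4 at an unadjusted p under 0.05, and 4 called by the exact test and by DESeq2.

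Cilia, neural crest and endoderm members were low or silent. Foxn4, a factor of retinal progenitors and ciliated cells, had 1.63, 0.933 and 1.66 CPM in WT1 to WT3 and 0.970, 1.02 and 1.14 CPM in KO1 to KO3, and overlapped (log2 fold change -0.43, adjusted p = 0.358). Foxd3, the neural crest factor kept by Schwann cell precursors, had 1.88, 1.40 and 1.75 CPM in WT1 to WT3 and 1.33, 1.21 and 1.32 CPM in KO1 to KO3, with the KO values just below WT (-0.39, adjusted p = 0.307). Schwann cell markers had a median of -0.36 with 0 of 5 called (2 at an unadjusted p under 0.05, 1 by the exact test and 1 by DESeq2). Foxj1, the master factor of motile cilia, had 8, 12 and 12 counts in WT and 4, 5 and 5 in KO, 0.164 to 0.539 CPM, and was not tested. Of 12 genes of motile cilia, 4 were tested and 1 was higher. This was Tekt1, a protein of axonemal microtubules, with 0.254, 0.127 and 0.180 CPM in WT1 to WT3 and 5.31, 4.17 and 2.24 CPM in KO1 to KO3 (adjusted p = 0.00122). It passed the filter only through the libraries labelled KO and so had to be higher to be tested, and the other 3 were not called.

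Of the other cell types of the lip, the median log2 fold change was -0.24 for dermal papilla genes, with 1 of 7 lower, 2 by the exact test (Wif1, a WNT inhibitor, -0.79, adjusted p = 0.0192), -0.56 for sebaceous gland genes, with 1 of 7 lower, 2 by DESeq2 (Awat1, a wax synthase, -1.09, adjusted p = 0.00409), -0.11 for macrophage and dendritic genes, with 0 of 6 called (1 in each direction at an unadjusted p under 0.05, 0 by the exact test or DESeq2), and -0.37 for melanocyte genes, with 0 of 5 called at any of these. No forkhead gene was set against these lists.

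The other genes under the filter were at or near 0. Foxa1 had 1 count in WT1 and 0 in the other 5 libraries, Foxb2 and Foxr1 had 1 count in WT2 and 0 elsewhere, and Foxa3 had 1 count in each WT library and 0 in each KO library. Foxh1, the partner of SMAD proteins in the early embryo, had 0 or 1 count in each library and Foxe3, the lens factor, 0 to 2. All of these lie under the 3 counts given above as the bound for a count of 0. The 7 markers of salivary and mucous glands summed to 15.7 to 19.3 CPM in WT and 59.9 to 121 CPM in KO, with 2 of 4 tested called higher (Aqp5, a water channel of secretory cells, log2 fold change 2.69, adjusted p = 0.000349, and Lpo, lactoperoxidase, 3.97, adjusted p = 0.0316). The remaining 2 tested had log2 fold changes below 0, the lower at -0.68, with 1 of them at an unadjusted p under 0.05.

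Forkhead genes are rich in G and C and often lack introns, and both properties went with the fold changes. When the 14024 tested protein-coding genes were put in 5 classes of rising GC content of the longest transcript, the median log2 fold change fell from class to class, 0.27, 0.11, -0.02, -0.15 and -0.25. Of the 28 forkhead genes, 15 were in the class of highest GC (over 55.7%), and their median was -0.70 (-0.54 over the 13 without Foxl1 and Foxl2). All KO values were below WT in 66.7% of the 15 and in 61.5% of the 13, against 29.3% of all genes in the class. The 10 tested forkhead genes with 1 exon had a median of -0.75 and the 18 with more exons one of -0.19, against -0.15 and -0.02 for 840 and 13184 protein-coding genes of the same kinds. Without the genes that passed the filter through 1 genotype alone, these medians were -0.62 over 8 forkhead genes and -0.24 over 17. Median GC content was 60.0% over the 10 forkhead genes with 1 exon and 54.8% over the 18 with more. The 2 properties thus went together in the family and cannot be told apart here. With the trend on GC content removed from the fit, the forkhead median was -0.23 (-0.19 over the 25 genes at 1 CPM in both genotypes) against 0.01 over all tested genes. Foxq1 (-0.96, adjusted p = 0.00944) and Foxp3 (1.62, adjusted p = 0.00913) were still called, and Foxp1 (-0.60, adjusted p = 0.0379) and Foxn3 (-0.55, adjusted p = 0.0404) were called lower, so that 3 forkhead genes in all were called lower against 3.33% of all tested genes. Foxp4 turned to 0.34, Foxk2 to 0.09, Foxd3 to 0.04, Foxo3 to 0.02 and Foxd2 to 0.01, and Foxj3 to -0.02, none of them called. What the GC trend came from was not tested.

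**Figure D4:**
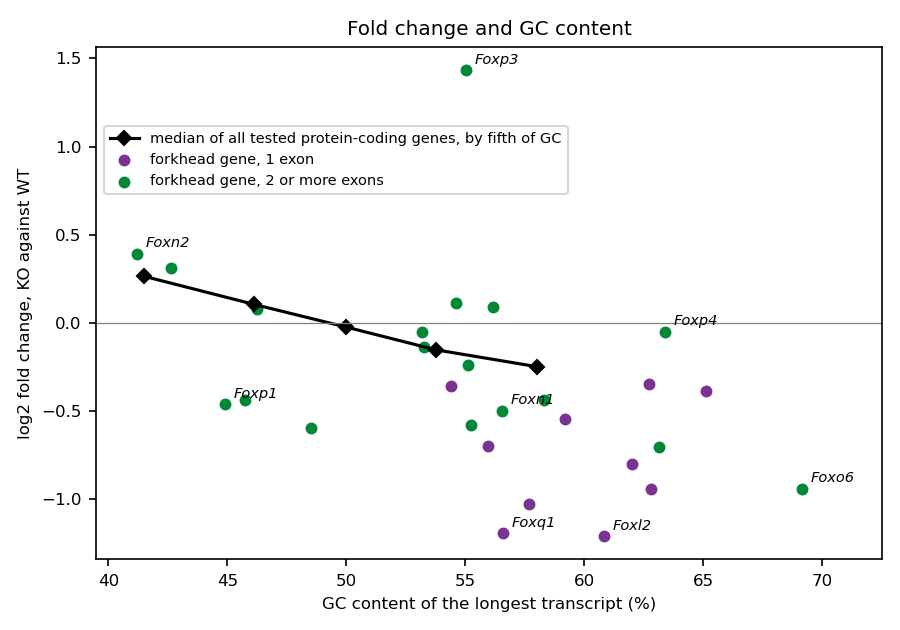
Log2 fold change, libraries labelled KO against WT, of the 28 tested forkhead genes against the GC content (%) of the longest transcript, by number of exons. Black diamonds give the median of all tested protein-coding genes in each of 5 GC classes, falling from 0.27 to -0.25, and 13 of the 15 forkhead genes in the highest class lie below the median of that class, Foxk1 and Foxp4 lying above it. Foxl1 and Foxl2, which had to be lower to be tested, are among those below it.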

How the data were processed

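The deposited values are whole-number counts of reads per gene symbol in 6 lip libraries, 1 per mouse, without normalization. Per the labels and the paper's methods, the authors aligned read pairs to the GRCm38 genome (TopHat2 2.0.8, Bowtie2 2.1.0) and counted uniquely assigned reads with HTSeq. The strand setting is not given in the sources used here, RNA integrity numbers were 9 to 9.5, and 0 entries named no gene.

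Genes reaching 1 CPM in 3 or more libraries were compared in R 4.3.3 with edgeR 4.0.16 (TMM, glmQLFit with legacy=FALSE, glmQLFTest) over the whole table, with Benjamini-Hochberg adjustment over all 15009 genes and a threshold of 0.05. CPM are TMM-scaled. Standard errors come from the fit. limma 3.58.1, DESeq2 1.42.0, other scalings and filters, a replicate block, trends on GC content and exon length (lowess span 0.3) and left-out libraries were alternatives. Scripts were tested on simulated counts with 200 changed genes. GC content, exon length and positions come from GENCODE vM21 of GRCm38, in which 26103 of 26814 symbols were found by symbol or synonym. Promoters come from RefSeq.

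All forkhead entries were accounted for. From each companion or marker list, forkhead genes removed, up to 3 called genes per direction with the lowest p were named, or, where none was called, up to 2 with the lowest p; further FoxO targets and T cell genes were named after their values were seen. The members and lists were chosen with earlier results of these data known, lists were described by counts and medians, and no p was adjusted over a list alone. Nothing says whether the mice were littermates or the libraries were made together, so the p-values measure the spread between these libraries.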

Additional observations from a re-analysis of the deposited data

How the results depend on the processing

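The forkhead genes called higher numbered 1 (Foxp3) in the fit as reported and 0 with a replicate block (adjusted p = 0.0505), and from 0 to 1 over the fits with 1 library left out. Those called lower numbered 1 (Foxq1), but 8 under the exact test, 7 under DESeq2, 9 at an adjusted p under 0.1, 3 with the GC trend removed, 2 with upper-quartile scaling and 2 with the replicate block and GC trend together, and from 0 to 11 with a library left out (11 without KO3, 0 without WT1, WT3 or KO2). Genes of the FoxM1, FoxO, hair, regulatory T cell and cilia lists called higher were 5, or 11 under the exact test, 13 under DESeq2, 9 with the GC trend removed, 9 with the block and GC trend and 12 at an adjusted p under 0.1, and from 2 to 15 with a library left out. Those called lower were 4, or 10 under the exact test, 12 under DESeq2, 9 with the block and GC trend and 12 at an adjusted p under 0.1, and from 0 to 22 with a library left out. Of all tested genes, 4.38% were called higher and 2.09% lower in the fit as reported, and 7.76% and 7.15% under the exact test. The share of all tested genes called lower was 7.61% under DESeq2, 3.36% with the block and GC trend, 8.53% at an adjusted p under 0.1 and 16.2% without KO3. The forkhead median of -0.44 moved to -0.23 with the GC trend removed. Over the 25 genes at 1 CPM in both genotypes it moved from -0.43 to -0.19. Signs turned in 8 genes, none of them called. With the GC trend removed, alone and with the block, these were Foxd2 (0.0083 and 0.025), Foxd3 (0.036 and 0.042), Foxj3 (-0.016 and -0.013), Foxk2 (0.093 and 0.092), Foxo3 (0.020 and 0.013) and Foxp4 (0.34 and 0.33). With no filter they were Foxk2 (0.0022) and Foxp4 (0.0029). With 1 library left out they were Foxj3 (-0.00035 to 0.14, below 0 without WT3), Foxk1 (-0.0076 to 0.20, below 0 without WT2), Foxk2 (-0.13 to 0.071, above 0 without KO1), Foxm1 (-0.023 without KO3 to 0.32, and -0.0023 without WT2) and Foxp4 (-0.16 to 0.059, above 0 without WT1 or KO1). The cause of these changes was not tested. Whether replicate numbers pair the libraries cannot be told from 3 libraries per genotype. The deviations of WT1 and KO1 from their genotype means correlated at -0.19, of WT2 and KO2 at 0.29 and of WT3 and KO3 at 0.31. For unlike numbers the correlations ran from -0.50 (WT2 and KO3) to 0.41 (WT2 and KO1). Under the block no forkhead call changed other than that of Foxp3. Foxl2 was not tested at 10 counts in every library. Genes of few counts per library, such as Foxp3, Foxl1 and Foxl2, have wide counting error at this depth.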
